A study of Mus musculus with 20 samples.

Results

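The control arm of a mouse study of bicarbonate supplementation in crystal nephropathy holds the animals not labelled as exposed to oxalate, and 10 of the study's 20 RNA-seq libraries came from that arm. The alkali-treated control group had 5 libraries (numbers 1, 4, 7, 27 and 37), labelled as given alkali therapy, which the series' design text describes as bicarbonate. The untreated control group had 5 libraries (numbers 9, 13, 19, 26 and 35) without alkali. The remaining 10 libraries came from oxalate-exposed mice, 5 with alkali and 5 without. They enter only the closing comparison and, as an alternative, the fit of all 20 libraries. The sample titles add the word "late" to the alkali groups without explaining it, and the labels give no dose, duration, strain, sex, age or tissue. The comparison asks what alkali did to gene expression where no oxalate was given, across all expressed genes and not a chosen set.

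The libraries carried a kidney signature throughout. The 16 proximal tubule markers summed to between 33530 and 34630 CPM (counts scaled to library size) in the alkali-treated libraries, against between 31260 and 36620 CPM in the untreated libraries. Podocyte, endothelial, thick limb, distal convoluted tubule, principal cell and intercalated cell markers were all detected. Total counts per library were 28234023 to 34849543 with alkali and 27268187 to 30526714 without. No library resembled a copy of another, since the chi-square statistic between libraries of 1 group was 9.56 to 38.6 per degree of freedom. The labels do not tie libraries to animals, so every p-value measures only the spread between these libraries, which may be technical. Untreated library 26 stood apart in fat-cell genes. Its Fasn, the fatty acid synthase gene, reached 1122 CPM, while no other control library passed 138 CPM. The 9 adipocyte markers summed to at most 171.9 CPM in alkali-treated and at most 840.7 CPM in untreated libraries. Adipoq, the adipocyte hormone adiponectin, passed 1 CPM in 4 libraries, alkali-treated 1 and 4 and untreated 9 and 26.

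The kidney guards the acidity of blood along 3 routes. Proximal tubule cells reclaim filtered bicarbonate through the sodium-proton exchanger Slc9a3 and the sodium-bicarbonate cotransporter Slc4a4, and they make ammonia from glutamine, a pathway known to be raised by an acid load. In the collecting duct, type A intercalated cells secrete acid with the proton pump and the anion exchanger Slc4a1, and type B cells secrete bicarbonate through pendrin, Slc26a4, which is known to be more abundant in alkalosis.

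Alkali-treated and untreated control libraries differed within a narrow band. Of 14392 genes tested, edgeR's quasi-likelihood test called 0 (0% of genes) after Benjamini-Hochberg adjustment at 0.05, and the smallest adjusted p was 0.179. At an unadjusted p under 0.05 there were 742 genes, 5.16% of those tested. When no gene differs, a share of about 0.05 passes that threshold. Of the 742 genes, 360 were higher (2.5%) and 382 lower (2.65%) with alkali. With total-count scaling that split was 693 higher and 237 lower, and the median of all genes moved to 0.033 on the log2 scale, against -0.002 under the scaling used throughout. DESeq2's Wald test on the same counts called 53 of 14366 genes (0.369%), 18 higher (0.125%) and 35 lower (0.244%), and limma-voom called 0. Of the 53 genes, 42 had no overlap between the alkali-treated and untreated libraries. Over all genes, 78 had every alkali-treated library above every untreated one (0.542%) and 71 had every one below (0.493%).

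The limits of this comparison can be stated as sizes. The 95% interval of a gene's log2 fold change, alkali over untreated, had a median half-width of 0.21, or 0.19 among genes whose mean log2 CPM reached 1. The log2 fold change lay between -0.5 and 0.5 for 97.4% of genes. Only 20 genes exceeded 1 and 50 lay under -1, whatever their p. The biological coefficient of variation, the typical relative spread between libraries of 1 group, was 0.137. The first principal component held 28.6% of the variance and did not part the groups, which ran from -16.3 to 21.6 with alkali and from -21.1 to 35.4 without, library 26 being the highest. Every gene named here and further on that is outside the 24-gene panel of acid-base, salt transport and injury genes was chosen after its values were seen.

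**Figure D1:**
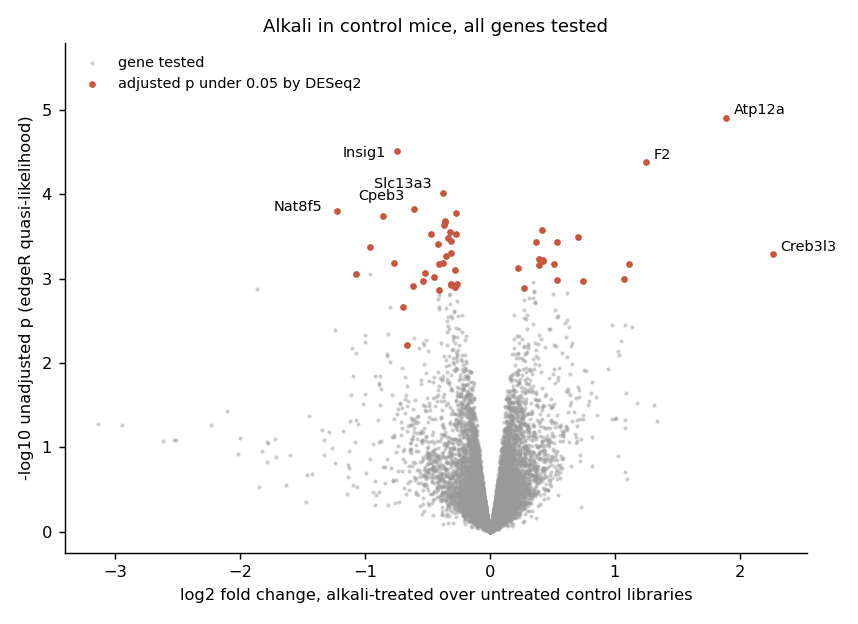
Each point is 1 of the 14392 genes tested, with the log2 fold change of alkali-treated over untreated control libraries on the horizontal axis and -log10 of the unadjusted edgeR p on the vertical axis. Red points are the 53 genes with a DESeq2 adjusted p under 0.05, and most other genes crowd within 0.5 of zero.

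Several genes of renal ammonia production had lower means with alkali, by modest amounts, and none passed the adjusted threshold. Pck1, the cytosolic phosphoenolpyruvate carboxykinase that disposes of the carbon left when glutamine yields ammonia, averaged 1419 ± 299 CPM in alkali-treated and 2048 ± 385 CPM in untreated libraries (SD, n = 5 each). Slc38a3, the glutamine transporter that feeds the pathway, averaged 30.6 ± 5.41 CPM in alkali-treated and 41.9 ± 9.85 CPM in untreated libraries (SD, n = 5 each). Of the 19 genes on the ammoniagenesis and glutamine list, 6 were lower and 0 higher at an unadjusted p under 0.05, where 2.65% of all genes were lower. The list's median log2 fold change was -0.05, against -0.002 for all genes.

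By library, Pck1 stood at 1679.7, 1049.8, 1733, 1446 and 1185 CPM in the alkali-treated libraries, against 2347, 2166, 2439.7, 1715 and 1574 CPM in the untreated libraries, in order of library number. Alkali-treated libraries 7 and 1 reached into the untreated range, and untreated libraries 35 and 26 were the lowest of their group. The log2 fold change was -0.53 ± 0.16 (SE; 95% interval -0.88 to -0.18; edgeR adjusted p = 0.629, unadjusted p = 0.00605). Slc38a3 had 33.6, 37.7, 30.2, 23.7 and 27.6 CPM in the alkali-treated libraries, against 33.6, 33.3, 55.5, 48.9 and 38.5 CPM in the untreated libraries. Its untreated values were wide apart, with libraries 19 and 26 well above the others, and the log2 fold change was -0.46 ± 0.16 (SE; edgeR unadjusted p = 0.0167).

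Glud1, the mitochondrial glutamate dehydrogenase that releases ammonium from glutamate, averaged 351 ± 23.02 CPM in alkali-treated and 391 ± 28.9 CPM in untreated libraries (SD, n = 5 each), a log2 fold change of -0.16 ± 0.07 (SE). The 2 ammonia channels of the list came next. Rhbg, on the basolateral membrane, had 38.4, 32.04, 37.2, 27.3 and 40.4 CPM in the alkali-treated libraries, against 46.4, 39.8, 44.1, 43.7 and 45.998 CPM in the untreated libraries; only alkali-treated library 37 reached above the lowest untreated library. Its log2 fold change was -0.33 ± 0.09 (SE; edgeR unadjusted p = 0.00395), and its annotation overlaps another gene on the same strand, so part of its count is uncertain. Rhcg, the apical channel, averaged 103 ± 8.95 CPM in alkali-treated and 115 ± 5.70 CPM in untreated libraries (SD, n = 5 each), a log2 fold change of -0.16 ± 0.07 (SE). Bulk RNA cannot tell fewer cells of a type from less RNA per cell, here and in all that follows. The count of 6 became 3 without alkali-treated library 4 and 2 when all 20 libraries shared 1 fit, and 2 genes were higher without untreated library 9 or with total-count scaling.

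**Figure D2:**
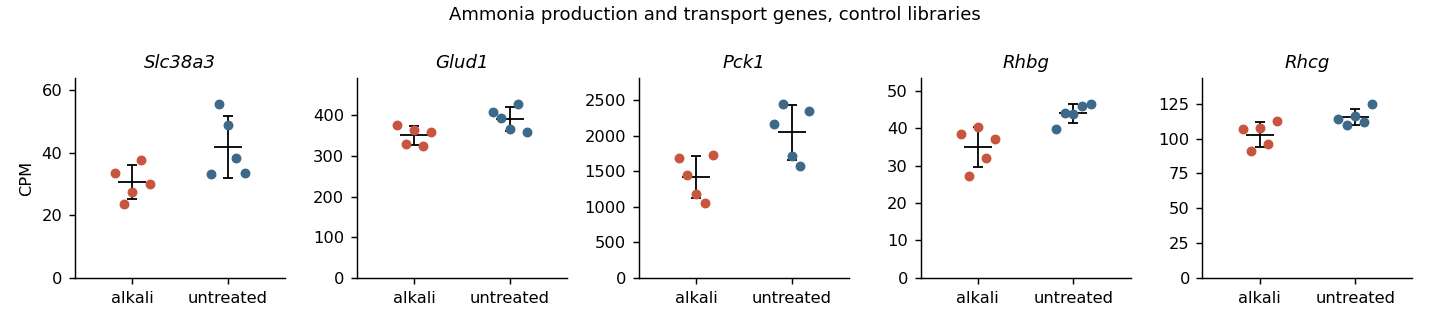
CPM of 5 ammonia genes in each control library, alkali-treated on the left and untreated on the right of each panel; points are libraries, long bars the means and whiskers the SD (n = 5 each). The means were lower with alkali in all 5 panels, and the groups overlapped in each.

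The rest of the list lay on both sides of zero: Slc7a7, a basic amino acid transporter, averaged 179 CPM with alkali and 155 CPM without, and the mitochondrial carboxykinase Pck2 averaged 18.96 CPM with alkali and 16.7 CPM without, both with an unadjusted p above 0.05. Pck1 lies at chr2:173153048-173159273 (GENCODE M21, GRCm38). Its promoter is shown because it had the largest fold change of the 6 lower genes. Its sequence, from RefSeq on GRCm38.p6 (chr2:173152823-173153122, plus strand, 250 bases before to 50 after the start site), holds in capitals the cAMP response element letters TTACGTCA, at -93 from the start. The letters, searched on both strands, occur in 0.499% of 32851 promoters of the same length, and among the 16 list genes with a promoter in the table in 1. No match of the other motifs searched overlaps it in this window, and the match is a description of letters only.
Pck1: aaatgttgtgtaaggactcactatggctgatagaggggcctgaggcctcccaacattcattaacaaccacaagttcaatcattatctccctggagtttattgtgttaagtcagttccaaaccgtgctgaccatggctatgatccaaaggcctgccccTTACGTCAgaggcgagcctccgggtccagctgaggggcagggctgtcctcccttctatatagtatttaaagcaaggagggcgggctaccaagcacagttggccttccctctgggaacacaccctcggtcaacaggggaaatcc

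Of the 24-gene panel of acid-base, salt transport and injury genes, the largest fold change belonged to Atp12a (chr14:56365068-56388550, GRCm38), the catalytic subunit of the nongastric proton-potassium pump, which exchanges protons for potassium. It had 1.29, 2.04, 2.91, 3.73 and 2.27 CPM in the alkali-treated libraries, against 0.587, 0.728, 0.754, 0.412 and 0.815 CPM in the untreated libraries. Every alkali-treated library lay above every untreated one. The log2 fold change was 1.89 ± 0.29 (SE; 95% interval 1.28 to 2.51), with an edgeR adjusted p of 0.179 and a DESeq2 adjusted p of 7.15e-06. Without alkali-treated library 1, the lowest of its group, edgeR's adjusted p was 0.0277 and the log2 fold change 2.05. The level was low in both groups. Atp4a, the gastric-type pump also found in intercalated cells, averaged 36.7 CPM with alkali and 42.6 CPM without, and the potassium channel Kcnj1 averaged 244 CPM with alkali and 201 CPM without (log2 fold change 0.28 ± 0.10, SE).

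The sodium channel subunits had fold changes of opposite sign. Scnn1g, the gamma subunit of the epithelial sodium channel, had 48.5, 44.4, 51.99, 57.1 and 54.7 CPM in the alkali-treated libraries, against 38.997, 38.2, 38.6, 36.96 and 45.8 CPM in the untreated libraries. Untreated library 35 alone reached the alkali-treated range, and the log2 fold change was 0.37 ± 0.08 (SE; edgeR adjusted p = 0.263, DESeq2 adjusted p = 0.0162). Scnn1a, the alpha subunit, had 103, 99.8, 83.5, 82.3 and 86.6 CPM in the alkali-treated libraries, against 132, 102, 112, 109.6 and 114 CPM in the untreated libraries; alkali-treated library 1 alone lay above the lowest untreated value. Its log2 fold change was -0.33 ± 0.08 (SE; edgeR adjusted p = 0.363, DESeq2 adjusted p = 0.0645). Scnn1b, the beta subunit, averaged 54.5 CPM with alkali and 52.8 CPM without. Sgk1, the aldosterone-induced kinase that keeps the channel at the membrane, ran from 44.8 to 87.05 CPM with alkali and from 45.5 to 93.7 CPM without, too wide a spread for a direction (log2 fold change -0.06 ± 0.24, SE).

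Among intercalated cell genes, Slc26a4 and Foxi1 had higher means with alkali. Slc4a1, Atp6v1b1, Atp6v0a4 and Slc4a9 had log2 fold changes close to zero. Slc26a4 had 98.6, 99.8, 113, 117 and 107 CPM in the alkali-treated libraries, against 98.9, 92.3, 96.5, 71.4 and 88.7 CPM in the untreated libraries. Alkali-treated library 1 alone lay under the highest untreated value, and the log2 fold change was 0.26 ± 0.09 (SE; 95% interval 0.08 to 0.44; edgeR unadjusted p = 0.00871). Foxi1, the transcription factor that sets intercalated cell identity, had 45.7, 44.7, 48.3, 44.9 and 55.97 CPM in the alkali-treated libraries, against 33.8, 33.2, 38.95, 36.96 and 44.6 CPM in the untreated libraries, with no overlap by the narrowest of margins and a log2 fold change of 0.35 ± 0.09 (SE; edgeR adjusted p = 0.36). Foxi1, and Hmx2, a homeobox factor at 9.76 CPM with alkali and 6.87 CPM without, were chosen after their values were seen. Slc4a1, the basolateral chloride-bicarbonate exchanger of type A cells, averaged 39.4 ± 6.24 CPM in alkali-treated and 40.1 ± 0.590 CPM in untreated libraries (SD, n = 5 each), with a 95% interval of -0.22 to 0.17 on the log2 fold change. The proton pump subunits Atp6v1b1 and Atp6v0a4 had log2 fold changes of 0.02 ± 0.06 and -0.08 ± 0.08 (SE), and Slc4a9, an anion exchanger of type B cells, -0.06 ± 0.13 (SE). Atp6v0a4 overlaps another gene on its strand, so part of its count is uncertain. Insrr, an alkali-sensing receptor of intercalated cells, averaged 44.5 CPM with alkali and 42.2 CPM without, a log2 fold change of 0.08 ± 0.10 (SE). Of the 27 tested genes of the intercalated cell list, 4 were higher and 2 lower at an unadjusted p under 0.05. The higher ones were Foxi1, Hmx2, Slc26a4 and the sodium-calcium exchanger Slc8a1, which is counted again on lists further on. The lower ones were Rhbg and Rhcg, already counted on the ammoniagenesis list. Over all genes 2.5% were higher and 2.65% lower. The list's median was 0.02, and leaving out single libraries gave 3 to 4 higher and 1 to 3 lower.

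Proximal bicarbonate reabsorption genes were close to level. Slc9a3 averaged 139 ± 12.8 CPM in alkali-treated and 148 ± 8.30 CPM in untreated libraries (SD, n = 5 each; 95% interval of the log2 fold change -0.24 to 0.07). Slc4a4 averaged 975 ± 75.3 CPM in alkali-treated and 1017 ± 128 CPM in untreated libraries (SD, n = 5 each; interval -0.25 to 0.13). The list had 2 of 16 genes higher and 1 lower at an unadjusted p under 0.05, against 2.5% and 2.65% of all genes. Its median was -0.00031. The count of higher genes was 0 without untreated library 13, untreated library 26 or alkali-treated library 4, 0 in 1 fit of all 20 libraries and 4 without untreated library 35. The lower one was Slc13a2, the apical sodium-dicarboxylate transporter that recovers citrate from urine, at 54.1, 46.3, 44.3, 32.3 and 38.3 CPM in the alkali-treated libraries, against 54.4, 58.2, 50.9, 51.8 and 55.4 CPM in the untreated libraries. Only alkali-treated library 1 entered the untreated range, and the log2 fold change was -0.33 ± 0.11 (SE; edgeR unadjusted p = 0.0104).

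Its basolateral counterpart Slc13a3 had the fourth smallest p of all genes and is named after its value was seen. It had 628, 569.8, 671, 656 and 579 CPM in the alkali-treated libraries, against 834, 825, 843, 716 and 816 CPM in the untreated libraries, with no overlap between the groups. The log2 fold change was -0.38 ± 0.07 (SE; edgeR adjusted p = 0.263, DESeq2 adjusted p = 0.000152). Both dicarboxylate transporters sit on the citrate and oxalate list. Of its 15 tested genes, 5 were lower and 0 higher at an unadjusted p under 0.05, against 2.65% lower over all genes. Others among the lower members were Agxt2, an alanine-glyoxylate aminotransferase of mitochondria (127 CPM with alkali and 148 CPM without), and the cytosolic aconitase Aco1 (369.7 CPM with alkali and 417 CPM without). Agxt2 overlaps another gene on its strand, so part of its count is uncertain. The list's median was -0.01, so the remaining 10 genes lay on both sides of zero. The count was 3 without alkali-treated library 27, 3 without alkali-treated library 37, 3 with total-count scaling and 0 when all 20 libraries shared 1 fit.

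Distal convoluted tubule genes stood on the high side. Pvalb, parvalbumin, a calcium buffer of the early distal convoluted tubule, had 21.1, 19.3, 29.1, 37.9 and 25.7 CPM in the alkali-treated libraries, against 18.3, 14.3, 16.5, 12.8 and 17.5 CPM in the untreated libraries. Every alkali-treated library exceeded every untreated one, and the log2 fold change was 0.75 ± 0.17 (SE; edgeR adjusted p = 0.348, DESeq2 adjusted p = 0.00875). The thick limb and distal convoluted list of 25 genes had a median of 0.06. At an unadjusted p under 0.05, 5 of them were higher and 0 lower, against 2.5% higher over all genes. Besides Pvalb they were the apical calcium channel Trpv5 (21.3 CPM with alkali and 17.5 CPM without), the magnesium channel Trpm6 (28.3 CPM with alkali and 19.97 CPM without), the calcium-binding protein Calb1 (385 CPM with alkali and 299 CPM without) and the sodium-calcium exchanger Slc8a1 (36.9 CPM with alkali and 28.7 CPM without), named after their values were seen. The count was 3 without untreated library 13, and without the 4 libraries with Adipoq above 1 CPM it was 4 higher and 2 lower. The sodium-chloride cotransporter Slc12a3, which defines this segment, did not share the pattern, at 1207 ± 139.6 CPM in alkali-treated and 1248 ± 235 CPM in untreated libraries (SD, n = 5 each; interval of the log2 fold change -0.31 to 0.22). The summed level of the 6 distal convoluted markers was mostly Slc12a3. It was 1605 to 1813 CPM with alkali and 1383 to 1865 CPM without, so the groups overlapped. By gene, the 6 markers had a median of 0.29. At an unadjusted p under 0.05, 3 were higher, Pvalb, Trpm6 and Calb1, and 0 lower. The part of the markers' level in these values was not tested. The list of calcium, phosphate and vitamin D genes, which shares Trpv5, Calb1 and Slc8a1, had 4 of 19 higher and 0 lower; the count was 1 without untreated library 13, and 2 without untreated library 26, without alkali-treated library 27 or in 1 fit of all 20 libraries. Kl, the phosphate-regulating co-receptor klotho, averaged 850.2 ± 39.99 CPM in alkali-treated and 768 ± 71.3 CPM in untreated libraries (SD, n = 5 each), a log2 fold change of 0.15 ± 0.07 (SE).

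Among the genes with the smallest unadjusted p, more were lower than higher with alkali. The genes of this paragraph were chosen after their values were seen, and all were called by DESeq2 and none by edgeR. Insig1, the endoplasmic reticulum protein that holds back sterol-driven transcription, had 22.95, 24.9, 16.99, 17.3 and 19.6 CPM in the alkali-treated libraries, against 29.8, 32.7, 36.6, 41.1 and 30.1 CPM in the untreated libraries, without overlap, for a log2 fold change of -0.75 ± 0.12 (SE; edgeR adjusted p = 0.199). Nat8f5, of an N-acetyltransferase family with near-identical neighbours, had 24.9, 15.9, 23.3, 17.96 and 17.5 CPM in the alkali-treated libraries, against 54.1, 66.5, 30.003, 40.4 and 42.4 CPM in the untreated libraries. The untreated values spread widely while the alkali-treated ones stayed beneath all of them. Reads of Nat8f5 may be split with its paralogs. Its annotation also overlaps another gene on the same strand, so part of its count is uncertain. Ugt2b37, a glucuronosyltransferase with close paralogs, had 105, 89.9, 83.2, 52.3 and 105 CPM in the alkali-treated libraries, against 154, 168, 143, 159 and 165 CPM in the untreated libraries, again without overlap (log2 fold change -0.86 ± 0.16, SE; edgeR adjusted p = 0.0147 without alkali-treated library 27). Cpeb3, an mRNA-binding regulator of translation, had 31.8, 30.1, 36.6, 28.6 and 30.7 CPM in the alkali-treated libraries, against 48.98, 52.4, 51.02, 54.95 and 33.7 CPM in the untreated libraries. Untreated library 35 alone lay within the alkali-treated range, and without it edgeR's adjusted p was 0.00482. Tfrc, the transferrin receptor that brings iron into cells, had 78.6, 92.7, 69.1, 79.6 and 69.5 CPM in the alkali-treated libraries, against 93.02, 130.1, 101, 103 and 113 CPM in the untreated libraries, without overlap (log2 fold change -0.47 ± 0.10, SE).

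On the high side, F2, prothrombin, had 1.88, 2.48, 1.40, 2.26 and 2.44 CPM in the alkali-treated libraries, against 0.898, 0.805, 0.918, 0.665 and 1.11 CPM in the untreated libraries, a log2 fold change of 1.25 ± 0.21 (SE; edgeR adjusted p = 0.199, DESeq2 adjusted p = 0.000457). The groups did not overlap, at a level of few CPM. Creb3l3, a transcription factor of lipid metabolism known from liver, had the largest log2 fold change among the 30 genes with the smallest p, 2.27 ± 0.50 (SE), at 0.396, 0.436, 1.03, 1.98 and 1.21 CPM in the alkali-treated libraries, against 0.276, 0.0766, 0.361, 0.158 and 0.148 CPM in the untreated libraries. Its lowest alkali-treated library only just cleared the highest untreated one. Agt, angiotensinogen, the precursor of angiotensin, averaged 68.2 ± 6.85 CPM in alkali-treated and 52.02 ± 6.03 CPM in untreated libraries (SD, n = 5 each). Dio1, the deiodinase that activates thyroid hormone, averaged 26.6 ± 0.885 CPM in alkali-treated and 19.9 ± 3.22 CPM in untreated libraries (SD, n = 5 each), with every alkali-treated library above every untreated one. Acot2, a mitochondrial acyl-CoA thioesterase, averaged 25.3 CPM with alkali and 18.9 CPM without, and Bco1, which cleaves beta-carotene, 5.88 CPM with alkali and 3.62 CPM without. These genes were also chosen after their values were seen.

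**Figure D3:**
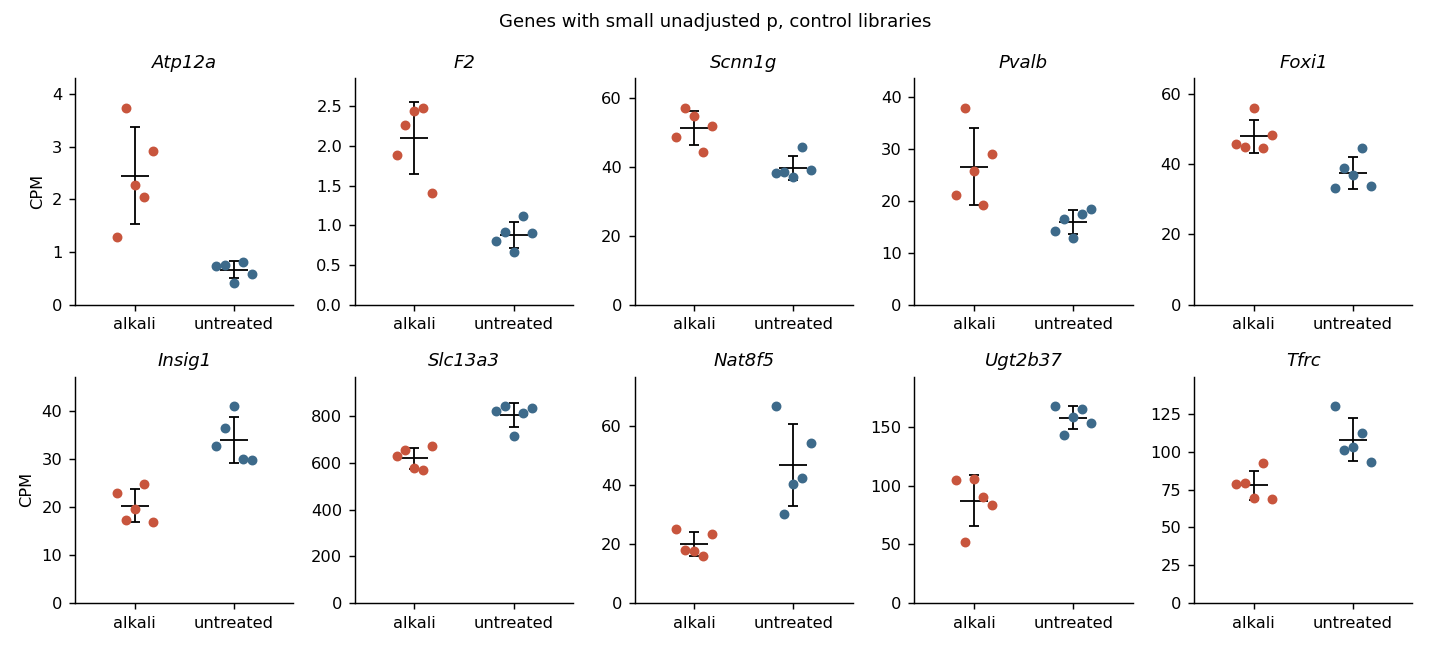
CPM in each control library for 10 genes with small unadjusted p, alkali-treated on the left and untreated on the right of each panel; points are libraries, long bars the means and whiskers the SD (n = 5 each). The top row shows genes with higher means with alkali and the bottom row genes with lower ones, and Scnn1g is the panel in which a single untreated library reaches into the alkali-treated range.

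Detoxification genes of the proximal tubule recurred among these low values. Of 40 tested genes of drug and xenobiotic metabolism, 6 were lower and 2 higher at an unadjusted p under 0.05. In 5 of the 40, every alkali-treated library lay below every untreated one. Over all genes, 2.65% were lower, 2.5% higher and 0.493% had every alkali-treated library below every untreated one. Fmo1, a flavin-containing monooxygenase, had 472, 465, 499, 449 and 408 CPM in the alkali-treated libraries, against 620.4, 671, 562, 548 and 558 CPM in the untreated libraries (log2 fold change -0.37 ± 0.07, SE). The carboxylesterase Ces2c averaged 320.4 CPM with alkali and 397 CPM without and the glucuronosyltransferase Ugt2b38 865 CPM with alkali and 1076 CPM without. Going the other way, Ces1g averaged 95.5 CPM with alkali and 54.5 CPM without and Ugt3a1 274 CPM with alkali and 225 CPM without. The list had 2 higher and 11 lower without untreated library 19, 2 higher and 10 lower without untreated library 26, and 5 higher and 6 lower without untreated library 35. With total-count scaling 5 were higher and 6 lower, and 1 fit of all 20 libraries gave 1 higher and 3 lower. The glutathione transferases Gsta2 (70.6 CPM with alkali and 93.4 CPM without) and Gstm1 (359 CPM with alkali and 438 CPM without) and the peroxiredoxin Prdx6 (183 CPM with alkali and 208 CPM without) were the 3 lower genes of 27 on the oxidative stress list, with 0 higher. Among organic ion and urate transporters, 6 of 34 were lower and 1 higher, against 2.65% and 2.5% of all genes. The lower transporters included Slc22a30 (212 CPM with alkali and 256 CPM without), an organic anion transporter of the proximal tubule, and the urate transporter Slc2a9 (23.3 CPM with alkali and 27.02 CPM without). The count of lower genes was 3 without untreated library 13, without untreated library 26 or without alkali-treated library 27. Total-count scaling gave 3 higher and 4 lower, and 1 fit of all 20 libraries gave 0 in either direction. Ugt2b38, Slc22a30 and the transporter Slco1a1 (446 CPM with alkali and 640.2 CPM without) are also on the list of 12 genes known to be more abundant in male than in female mouse kidney, where they were the 3 lower at an unadjusted p under 0.05, with 0 higher (6 lower without untreated library 19, and 0 in either direction in 1 fit of all 20 libraries). That list's sum was 35690 to 45970 CPM with alkali and 40520 to 50710 CPM without; whether it bears on the detoxification genes was not tested.

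Cholesterol synthesis gave the lowest median of the 28 pathway lists when all 10 control libraries were used, a rank that 2 of them decide. Cells make sterols under the transcription factor SREBP, which Insig1 restrains and whose targets include Hmgcs1 and Sqle. Of the 37 genes of cholesterol and fatty acid synthesis, 11 were lower and 0 higher at an unadjusted p under 0.05. Over all genes 2.65% were lower. The list's median log2 fold change was -0.22 and 6 of its genes lay above zero, where 49.0% of all genes did. Hmgcs1, which makes HMG-CoA, the precursor of mevalonate, averaged 588 ± 75.1 CPM in alkali-treated and 685 ± 32.6 CPM in untreated libraries (SD, n = 5 each; log2 fold change -0.22 ± 0.08, SE). Sqle, squalene epoxidase, averaged 56.7 CPM with alkali and 70.2 CPM without, Cyp51, the lanosterol demethylase, 200.4 CPM with alkali and 239.8 CPM without, Mvd, mevalonate decarboxylase, 45.9 CPM with alkali and 54.6 CPM without, and the transcription factor gene Srebf1 26.2 CPM with alkali and 35.8 CPM without. The fat-cell genes of untreated library 26 sit on the same list. Without that library 13 genes were lower and 1 higher with a median of -0.16, and without the 4 libraries with Adipoq above 1 CPM, 12 were lower, 1 higher, the median was again -0.16 and Insig1 was called by edgeR (log2 fold change -0.89, adjusted p = 0.0484). The list was then no longer the lowest: without library 26 the immediate early (-0.17), heat shock (-0.16) and circadian lists (-0.16) had lower medians, and without the 4 libraries the cytokine list did (-0.19). Without alkali-treated library 27 the immediate early list was the lowest (-0.34, against -0.24 for cholesterol synthesis). Total-count scaling left 7 lower, and 1 fit of all 20 libraries left 6.

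The promoters of Insig1 and Hmgcs1 are shown as the members at the head of this list and at its entry enzyme. They are RefSeq sequences on GRCm38.p6, at chr5:28071162-28071461, plus strand, and chr13:119690101-119690400, plus strand. Capitals in Insig1 mark the E-box letters CACGTG at -101 from the start, which 7.15% of the 32851 promoters hold and 5 of the list's 26 genes with a promoter in the table. Capitals in Hmgcs1 mark the sterol regulatory element letters TCACNCCAC at -137, which 1.24% of promoters hold and 1 of the 26 genes. Both motifs were searched on both strands and do not overlap here.
Insig1: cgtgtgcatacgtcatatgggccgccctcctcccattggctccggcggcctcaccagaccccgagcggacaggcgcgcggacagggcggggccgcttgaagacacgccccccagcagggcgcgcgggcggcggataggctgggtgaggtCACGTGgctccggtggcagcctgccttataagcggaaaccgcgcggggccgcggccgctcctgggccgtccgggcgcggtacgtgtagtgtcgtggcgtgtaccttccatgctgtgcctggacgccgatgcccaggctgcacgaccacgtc
Hmgcs1: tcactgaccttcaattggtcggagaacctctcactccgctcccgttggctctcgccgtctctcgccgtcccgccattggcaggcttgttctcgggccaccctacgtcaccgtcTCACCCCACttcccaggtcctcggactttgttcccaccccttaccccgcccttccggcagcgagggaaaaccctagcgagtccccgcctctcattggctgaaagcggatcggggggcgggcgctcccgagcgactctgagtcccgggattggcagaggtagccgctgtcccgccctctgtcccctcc

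Circadian clock genes had a median of -0.17. At an unadjusted p under 0.05, 4 of 25 were lower and 1 higher, against 2.65% and 2.5% of all genes. The lower ones included Tef and Dbp, clock-controlled activators, and Ciart, a repressor of the clock. Tef had 223, 223, 236, 182 and 217 CPM in the alkali-treated libraries, against 304, 339, 252, 307 and 232 CPM in the untreated libraries (log2 fold change -0.41 ± 0.10, SE; DESeq2 adjusted p = 0.0396). Dbp had 12.4, 15.8, 30.8, 14.04 and 27.5 CPM in the alkali-treated libraries, against 33.5, 34.7, 30.2, 33.8 and 27.7 CPM in the untreated libraries; the alkali-treated libraries 7 and 37 were near the untreated level and the other 3 were not. Ciart ranged from 0.957 to 1.37 CPM with alkali and from 0.926 to 3.41 CPM without, untreated library 35 being the lowest of all 10. Arntl, the core activator whose phase is opposite to that of Dbp, was the higher one, at 17.1, 15.8, 9.30, 14.5 and 9.46 CPM in the alkali-treated libraries, against 10.7, 9.50, 9.25, 10.7 and 10.4 CPM in the untreated libraries, and alkali-treated libraries 7 and 37 again sat at the untreated level. The labels give no time of day at collection. The count of lower genes was 2 without untreated library 13, 2 without the 4 libraries with Adipoq above 1 CPM and 2 in 1 fit of all 20 libraries, but 6 without untreated library 35. The median was -0.09 without alkali-treated library 27 and -0.11 without untreated library 19. The Ciart promoter (chr3:95882179-95882478, minus strand, RefSeq, GRCm38.p6) is shown for its 3 E-boxes CACGTG, in capitals, a motif found in 5 of the 19 clock genes with a promoter in the table.
Ciart: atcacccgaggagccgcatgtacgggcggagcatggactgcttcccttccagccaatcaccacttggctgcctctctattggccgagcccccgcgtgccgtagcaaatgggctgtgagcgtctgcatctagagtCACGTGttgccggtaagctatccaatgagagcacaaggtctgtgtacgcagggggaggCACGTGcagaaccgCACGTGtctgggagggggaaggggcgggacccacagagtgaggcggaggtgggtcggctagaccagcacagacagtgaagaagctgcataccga

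**Figure D4:**
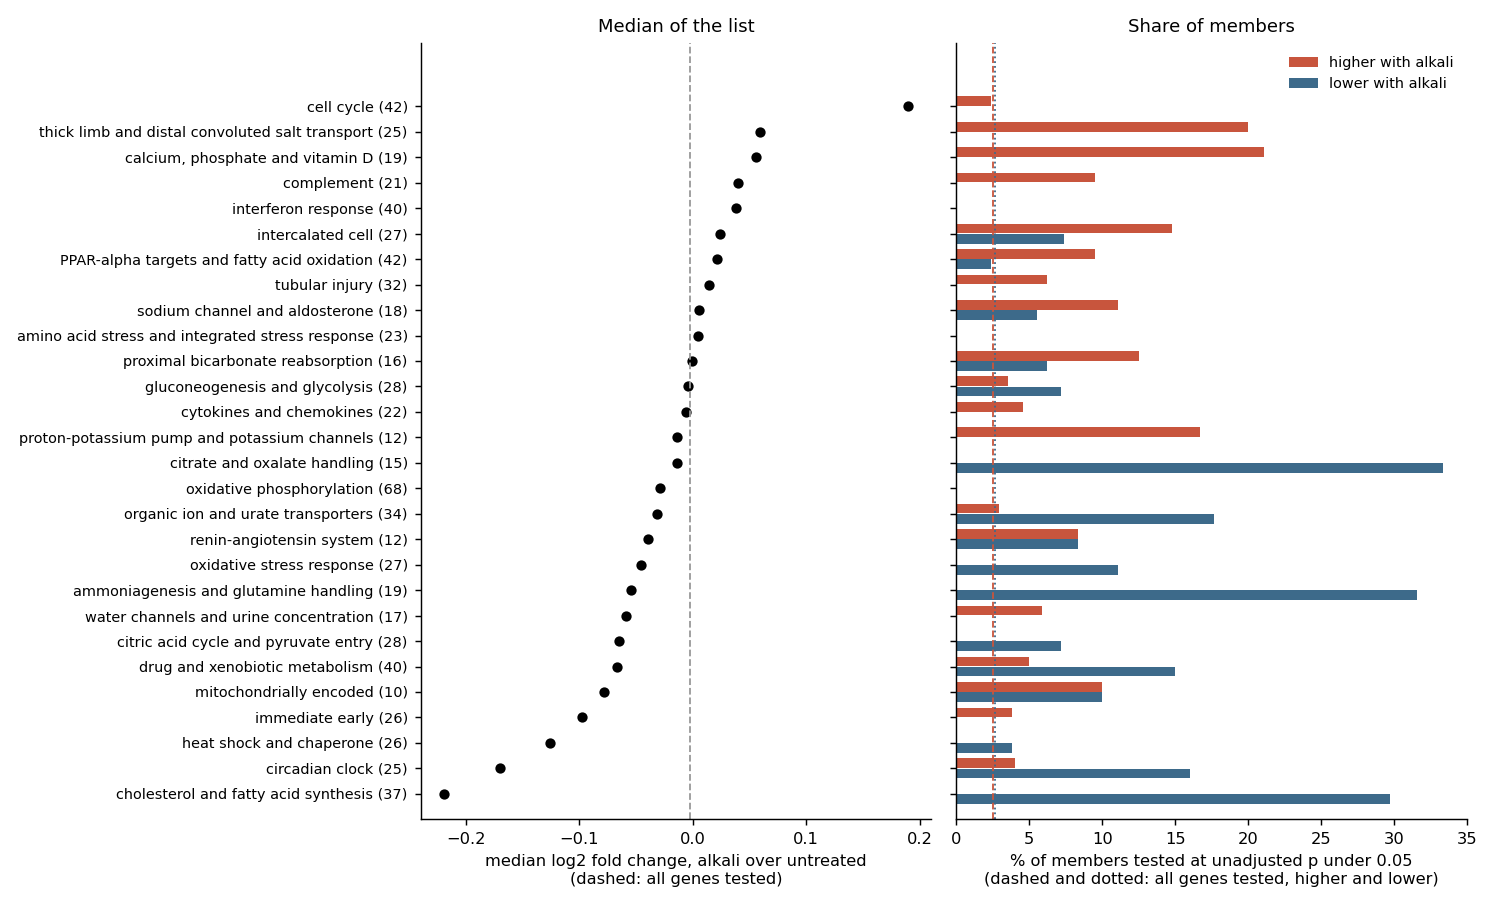
The 28 pathway lists with the number of genes tested in brackets; left, the median log2 fold change of alkali over untreated, with all genes dashed; right, the share of members at an unadjusted p under 0.05, higher (red) and lower (blue), with the shares of all genes as vertical lines. Cholesterol and fatty acid synthesis is lowest at -0.22 and cell cycle highest at 0.19.

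Cell cycle genes had a median of 0.19, the highest with all 10 control libraries. Of the 42 genes, 36 lay above zero, where 49.0% of all genes did. At an unadjusted p under 0.05, 1 was higher and 0 lower, against 2.5% and 2.65% of all genes. That 1 was the replication licensing gene Mcm2 (12.4 CPM with alkali and 10.7 CPM without). Without alkali-treated library 27 the median was 0.06, no longer the highest, and 28 lay above zero; without untreated library 19 it was 0.16, under that of the immediate early list. The count was 9 without untreated library 35, 3 without untreated library 26 or alkali-treated library 7, and 0 without untreated libraries 9, 13 or 19 or alkali-treated libraries 4 or 27, each left out alone. Heat shock and chaperone genes had a median of -0.13, with 3 of 26 above zero and 1 lower, the small heat shock protein gene Hspb8, at 5.32, 3.25, 5.57, 6.44 and 4.52 CPM in the alkali-treated libraries, against 8.36, 8.01, 7.18, 6.94 and 8.04 CPM in the untreated libraries. The count was 5 without untreated library 26, 6 without alkali-treated library 27 and 2 without untreated library 35. The median was -0.05 with 10 genes above zero without untreated library 19, -0.08 with 6 above zero without untreated library 13, and -0.08 with 6 above zero without alkali-treated library 4. Of 68 oxidative phosphorylation genes, 0 had an unadjusted p under 0.05 in either direction. Their median was -0.03 with 13 above zero, and under total-count scaling it was 0.004 with 39 above zero. With that scaling 9139 of all 14392 genes lay above zero. Immediate early genes had a median of -0.10, which became 0.18 without untreated library 19.

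No injury or inflammation gene was called by edgeR, and the main injury markers overlapped between the groups. Havcr1, the kidney injury molecule KIM-1 of damaged proximal tubules, had 2.74, 3.45, 1.47, 4.91 and 1.90 CPM in the alkali-treated libraries, against 2.56, 2.15, 1.77, 1.39 and 4.26 CPM in the untreated libraries. Lcn2, the injury marker NGAL, had 1.88, 2.35, 1.71, 3.92 and 1.41 CPM in the alkali-treated libraries, against 2.97, 1.26, 1.64, 2.47 and 2.07 CPM in the untreated libraries. Both were low in every library and the groups overlapped widely, with 95% intervals of the log2 fold change of -0.50 to 1.02 for Havcr1 and -0.52 to 0.73 for Lcn2. Of 32 tubular injury genes 2 were higher and 0 lower, Prom1, a membrane protein of repairing tubule cells (72.6 CPM with alkali and 57.1 CPM without), and Spp1, osteopontin (618 CPM with alkali and 528 CPM without), named after their values were seen. Every alkali-treated library exceeded every untreated one for Prom1, and Spp1 overlaps another gene on its strand. The injury list had 5 higher and 0 lower without untreated library 19 (median 0.09), 2 higher and 3 lower without untreated library 13 (median -0.06), and 4 higher and 0 lower without alkali-treated library 4 or with total-count scaling; with all 10 control libraries the median was 0.01. At an unadjusted p under 0.05 there were, of 40 interferon genes 0 in either direction, and of 22 cytokine and chemokine genes 1 higher. Of 21 complement genes 2 were higher. Over all genes 2.5% were higher and 2.65% lower. The 16 macrophage and monocyte markers summed to 295.8 to 395.3 CPM with alkali and 282.9 to 397.6 CPM without. The neutrophil markers summed to 1.09 to 1.64 CPM with alkali and 0.92 to 3.15 CPM without, and 2 of the 8 passed the low-count filter. Ren1, renin, averaged 73.5 ± 9.14 CPM in alkali-treated and 76.9 ± 15.4 CPM in untreated libraries (SD, n = 5 each; interval of the log2 fold change -0.34 to 0.21).

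Set beside the oxalate arm, alkali in control mice gave smaller effects on several genes of the 24-gene panel, but the test of the difference called none of them. The difference, the control effect minus the oxalate effect, was called by edgeR for 0 of 15430 genes (0%), with a smallest adjusted p of 0.0907, while 1429 genes (9.26%) had an unadjusted p under 0.05 and limma-voom with weights per group called 0. In oxalate mice alone, alkali changed 29 of 15314 genes (0.189%) at an edgeR adjusted p under 0.05, and 2074 (13.5%) had an unadjusted p under 0.05. The biological coefficient of variation was 0.137 in control and 0.234 in oxalate libraries. The 2 effects share no library.

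For Pck1 the log2 fold change was -0.53 ± 0.16 in control and -1.56 ± 0.32 in oxalate mice (SE), a difference of 1.04 ± 0.37 (SE; edgeR unadjusted p = 0.00964, adjusted p = 0.474). The oxalate libraries, scaled together with all 20, had 1048, 481, 431, 672 and 582 CPM with alkali, against 2257, 1798, 2179.9, 2469 and 859.6 CPM without. Slc38a3 had -0.46 ± 0.16 in control and -1.32 ± 0.22 in oxalate mice, where it fell at an edgeR adjusted p of 0.0472, and a difference of 0.88 ± 0.29 (SE; adjusted p = 0.474). Both ammonia genes lay lower with alkali in both arms. Slc4a1 was near zero in control mice and 0.96 ± 0.20 in oxalate mice (SE), a difference of -0.97 ± 0.22 (SE; edgeR unadjusted p = 0.000327, adjusted p = 0.363). Atp12a ran the other way, 1.89 ± 0.29 in control and 0.38 ± 0.28 in oxalate mice (SE), a difference of 1.52 ± 0.41 (SE; adjusted p = 0.39). Untreated oxalate libraries had 1.76, 1.03, 1.19, 2.38 and 2.45 CPM of it, above the untreated control libraries in every case. F2, outside the panel and chosen after its value was seen, had the smallest p of the difference. Its log2 fold change was 1.25 ± 0.21 in control and 3.78 ± 0.37 in oxalate mice (SE; edgeR adjusted p of the oxalate effect = 0.00617), a difference of -2.52 ± 0.41 (SE; adjusted p = 0.0907). Scaled with all 20, the oxalate libraries had 1.79 to 3.62 CPM of F2 with alkali and only 0.0992 to 0.333 CPM without. The control libraries then had 1.53 to 2.71 CPM with alkali and 0.719 to 1.22 CPM without. Havcr1 had 0.26 ± 0.35 in control and -1.93 ± 0.43 in oxalate mice (SE; adjusted p of the difference = 0.416). Its starting levels differed: on the same scaling the oxalate libraries had 11.1 to 17.8 CPM with alkali and 26.8 to 137 CPM without. All control libraries had 1.51 to 5.35 CPM.

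**Figure D5:**
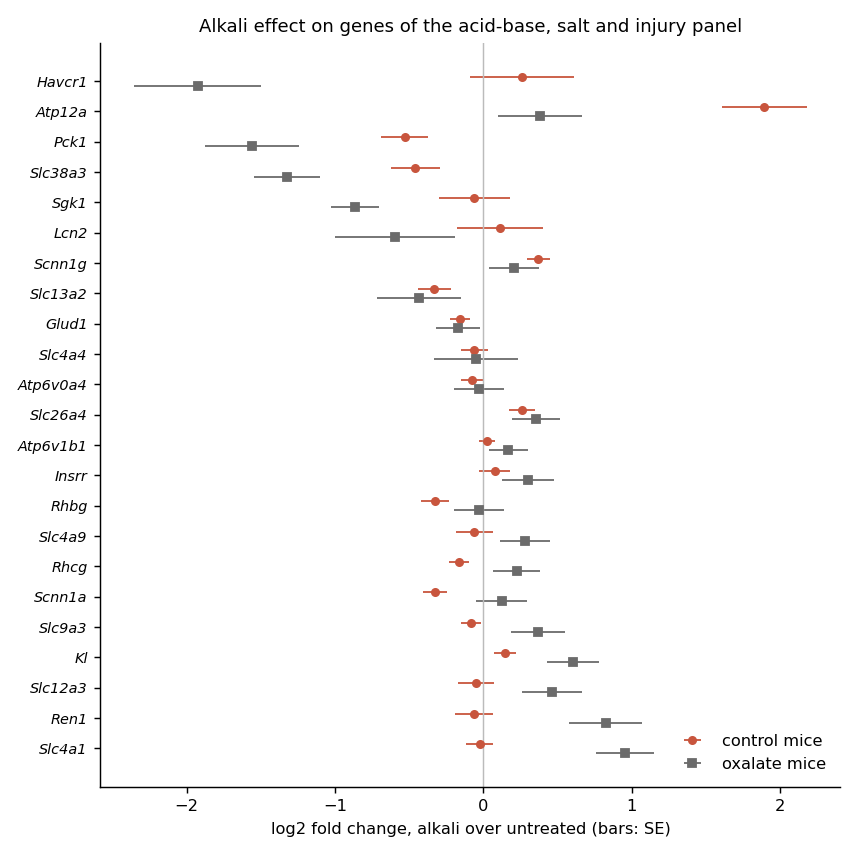
Log2 fold change of alkali over untreated for genes of the 24-gene panel in control mice (red circles) and oxalate mice (grey squares), with bars for the SE. Pck1 and Slc38a3 lie left of zero in both, Atp12a is furthest right in control mice at 1.89, and Slc4a1 is near zero in control and 0.96 in oxalate mice.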

How the data were processed

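RNA from 20 mouse libraries was sequenced after poly(A) selection with a stranded TruSeq kit, per the labels' protocols. Each deposited file lists unnormalised gene counts, whole numbers for 25700 mouse identifiers, which the authors made with bcl2fastq 2.19, Trimmomatic, STAR 2.7.1 and featureCounts, per the submitters' processing notes. The notes name the human build GRCh38.p5, though the identifiers are mouse, so the build behind the counts is not settled. The strand setting is not given in the sources used here, so counts of overlapping genes are uncertain. Symbols and coordinates came from GENCODE M21 (GRCm38), which matched 25664 identifiers; the other 36 held at most 0.0226% of any library's counts.

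The 10 control libraries, grouped by treatment label and title, were fitted alone with 2 group means in edgeR 4.0.16 (R 4.3.3), with TMM scaling, genes kept by filterByExpr at a minimum count of 10 (14392 kept, 11308 removed, at least 99.9% of counts retained) and the robust quasi-likelihood test. P-values were adjusted by Benjamini-Hochberg and calls made at 0.05. The SE is the log2 fold change over the square root of F. CPM values use the TMM-scaled sizes of the 10 libraries. The difference between arms came from 1 fit of all 20 libraries with 4 group means, and the oxalate effect from the 10 oxalate libraries alone. Alternatives were other scalings, DESeq2 1.42.0, limma-voom (limma 3.58.1), other filters, each library left out, and, chosen after seeing the data, the 4 libraries with Adipoq above 1 CPM left out. The scripts were tested on simulated data. Results on some members of the lists are not reported here. Named by rule were called genes and a 24-gene panel; as no gene was called, every gene outside the panel was chosen after its values were seen. Members, lists and panel were chosen with earlier results of these data known. Intervals cover the spread between libraries; the depth adds little counting error except for genes of a few CPM.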

Additional observations from a re-analysis of the deposited data

Results flagged for a closer look

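Among 99 genes checked, each with 2 groups of 5 libraries, 8 of 198 groups held a library whose gap to its nearest neighbour was above 0.71 of the group's range. Chance flags about 1 group in 20, so 8 is no more than that. In the alkali-treated group, library 27 had 117.4 CPM of Slc9a3, while the other 4 had 140.7 to 150.2. Library 4 had 89.21 CPM of Ren1, with the others at 66.44 to 72.65, and 313.7 CPM of Calb1, with the others at 390.0 to 416.6. Library 37 had 26.95 CPM of Slc2a9 beside 21.85 to 22.97 in the others, and 3.365 CPM of Cfi, a complement regulator, beside 4.49 to 4.912. In the untreated group, library 26 had 716.4 CPM of Slc13a3, with the others at 816.3 to 843.1; it is also the library with the most Fasn and Adipoq. Library 35 had 33.66 CPM of Cpeb3, with the others at 48.98 to 54.95, and 45.81 CPM of Scnn1g, with the others at 36.96 to 38.997. For Slc13a3, Cpeb3, Scnn1g, Slc2a9, Calb1 and Cfi the odd library was the one nearest the other group, so it narrowed the difference between the groups.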

How the results depend on the processing

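No paired analysis was possible because the groups share no replicate number. The counts of 0 higher and 0 lower genes held under median-ratio and total-count scaling, limma-voom, no filter on low counts, a floor at an average log2 CPM of 1, a fit of all 20 libraries and library sizes without the 10 most abundant genes. The smallest adjusted p over these was 0.0539 to 0.257. DESeq2 called 18 higher and 35 lower; the cause was not tested. Leaving out single libraries gave 0 to 1 higher and 0 to 1 lower (Atp12a without alkali-treated library 1, Cpeb3 without untreated library 35, Ugt2b37 without alkali-treated library 27), with 573 to 968 genes at an unadjusted p under 0.05. The fit of all 20 libraries had 389 such genes, against 742. Without the 4 libraries with Adipoq above 1 CPM, 0 genes were called higher and 1 lower, Insig1. For the difference between arms, single libraries left out gave 0 to 3 calls: F2, Nccrp1 and Eif1a without alkali-treated control library 4, and F2 without untreated oxalate library 3.

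Of 99 genes checked, log2 fold changes near zero turned sign in 7: Slc4a1 was 0.0117 under total-count scaling, and with single libraries left out the ranges were -0.0940 to 0.0516 for Slc4a1, -0.0178 to 0.557 for Havcr1, -0.187 to 0.27 for Lcn2, -0.144 to 0.0203 for Ren1, -0.215 to 0.111 for Sgk1, -0.139 to 0.0195 for Slc12a3 and -0.148 to 0.0203 for Slc4a9. The medians of the 28 pathway lists moved by less than the spread between libraries under both other scalings. With 5 libraries a group, the median interval half-width of about 0.21 is a width before adjustment, not a limit of detection. Rhcg, with a log2 fold change of -0.16, had an edgeR unadjusted p of 0.0274. After adjustment edgeR did not call even Atp12a, at 1.89.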

Other observations

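Fat oxidation and pyruvate entry genes, which the comparison above does not cover, held values on both sides. All genes named here were chosen after their values were seen, none was called by edgeR, and all had an unadjusted p under 0.05. Of 42 PPAR-alpha and fatty acid oxidation genes, 4 were higher and 1 lower with alkali, against 2.5% and 2.65% of all genes. With untreated library 26, alkali-treated library 7 or alkali-treated library 27 left out alone, 2 were higher. With untreated library 9, 13 or 35 or alkali-treated library 1, 4, 27 or 37 left out alone, 0 were lower. Cpt1a, which admits long-chain fatty acids to mitochondria, averaged 556 ± 27.5 CPM in alkali-treated and 494 ± 46.3 CPM in untreated libraries (SD, n = 5 each), and the peroxisomal thioesterase gene Acot3 averaged 18.95 CPM with alkali and 14.8 CPM without. Acot3 overlaps another gene on its strand, so part of its count is uncertain. Pcx, pyruvate carboxylase, averaged 714 CPM with alkali and 818 CPM without, and Mpc1, a subunit of the mitochondrial pyruvate carrier, 109.5 CPM with alkali and 123 CPM without.

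In the renin-angiotensin list of 12 tested genes, 1 was higher, Agt, and 1 lower, against 2.5% and 2.65% of all genes. The lower one was Ace, angiotensin-converting enzyme, with 293, 301, 238, 253 and 265 CPM in the alkali-treated libraries, against 352, 327, 276, 301 and 364 CPM in the untreated libraries. The groups overlapped, and the log2 fold change was -0.26 ± 0.09 (SE). Fxyd4, a regulator of the sodium pump in the collecting duct, averaged 37.01 ± 5.62 CPM in alkali-treated and 29.2 ± 5.39 CPM in untreated libraries (SD, n = 5 each).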
